A study of Mus musculus with 2 samples.

Results

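The distal end of mouse chromosome 4, from position 130000000 to the end of the chromosome at 155630120 (build mm9, NCBIM37), was compared between wt and βerko MEFs. Its members were all cytosine positions of the deposited table with a position of at least 130000000 on chromosome 4, which gave 23097 of 826937 positions. They were set against the 35555 positions on the rest of chromosome 4 and the 751421 positions on the other 18 autosomes. MEFs are mouse embryonic fibroblasts, here of strain C57BL/6, and βerko MEFs carry the genotype ESR2 -/-, a knockout of the gene of oestrogen receptor β (ERβ), whereas wt MEFs are wildtype. Methylation was measured by reduced representation bisulfite sequencing (RRBS), in which DNA is cut with MspI at CCGG, size-selected, treated with bisulfite and sequenced, so that the percentage of reads still showing a cytosine gives its methylation. Each cell type was 1 library of DNA pooled from 3 batches. There were therefore no replicates, the spread between cultures or animals is unknown, and a difference between the libraries cannot be told apart from a difference between the 2 cultures. The sources used here do not name the embryonic age or the number of animals behind each culture, and markers of fibroblasts cannot be checked in methylation data.

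Methylation in mammals sits mainly on the cytosine of CpG dinucleotides. CpG-rich promoters are usually unmethylated, whereas CpGs in gene bodies and between genes are usually methylated. Methylation of CpG-rich sequence at a transcription start generally accompanies silencing, while the relation in gene bodies is less simple. ERβ is a nuclear receptor that binds DNA and regulates transcription, and the study asked which positions differ in methylation in its absence. The distal end of chromosome 4 carries genes of several developmental regulators, among them Runx3, Prdm16, Pax7 and the Hes genes, and a group of TNF receptor genes.

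At this end of the chromosome, strong changes in both directions were more frequent than elsewhere. A position was counted as a loss when methylation was above 80 % in wt and below 20 % in βerko MEFs, and as a gain when it was below 20 % in wt and above 80 % in βerko MEFs. There were 364 losses and 169 gains. A differentially methylated position (DMP) is a loss or gain with more than 4 reads in both libraries, which left 333 hypomethylated DMPs (lower in βerko MEFs) and 164 hypermethylated DMPs. The region was chosen on the frequency of these changes in these same libraries, so that the frequencies are a description and were not tested. Reads were fewer in wt than in βerko MEFs at most DMPs here, and the excess of hypomethylated DMPs over the other autosomes was not seen among positions with at least 30 reads in both libraries. These values are given with the results below.

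The sequences of 7 clusters of DMPs are printed as examples of both directions, chosen after their values were seen from those that lie outside untranslated regions and belong mostly to the genes described here. A cluster was at least 3 DMPs of 1 direction with gaps of at most 100 bp. All are from the plus strand of NCBIM37, 5′ to 3′, and capitals mark the CpGs with a DMP on either strand. The first 4 lost methylation and the last 3 gained it.
Runx3, chr4:134709007-134709206, the 200-bp window with the most DMPs of its second cluster: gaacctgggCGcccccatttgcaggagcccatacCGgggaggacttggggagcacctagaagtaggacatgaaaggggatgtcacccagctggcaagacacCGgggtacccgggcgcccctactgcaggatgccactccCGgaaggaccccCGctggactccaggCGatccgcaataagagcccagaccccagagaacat
Prdm16, chr4:154009668-154009829, intron: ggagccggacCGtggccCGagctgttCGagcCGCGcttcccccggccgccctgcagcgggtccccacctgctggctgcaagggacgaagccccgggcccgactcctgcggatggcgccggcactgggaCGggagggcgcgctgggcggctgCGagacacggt
Ephb2, chr4:136339654-136339880, intron: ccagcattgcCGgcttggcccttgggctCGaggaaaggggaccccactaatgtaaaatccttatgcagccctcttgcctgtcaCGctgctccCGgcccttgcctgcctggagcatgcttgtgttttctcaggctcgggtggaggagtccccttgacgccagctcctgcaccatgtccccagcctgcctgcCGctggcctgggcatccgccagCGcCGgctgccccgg
Slc35e2 and Mib2, chr4:155028581-155028705, between gene models: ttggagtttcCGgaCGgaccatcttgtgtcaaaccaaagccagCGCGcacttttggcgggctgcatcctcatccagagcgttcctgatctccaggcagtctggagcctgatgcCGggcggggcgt
No overlapping gene, chr4:153193113-153193176: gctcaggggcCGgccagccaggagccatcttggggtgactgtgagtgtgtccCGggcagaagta
Ajap1, chr4:152836190-152836254, intron: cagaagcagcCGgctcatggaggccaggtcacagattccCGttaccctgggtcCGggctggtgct
Megf6, chr4:153598285-153598335, exon: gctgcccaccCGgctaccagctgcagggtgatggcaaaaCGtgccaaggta
The Prdm16 window held 21 CpGs in 162 bp, of which 7 had a DMP. The Ephb2 window held 11 CpGs in 227 bp, again 7 of them with a DMP. The printed hypermethylated windows were short and held few CpGs, with 2 in 64 bp in the window without a gene, 3 in 65 bp at Ajap1 and 2 in 51 bp at Megf6. Each of these CpGs had a DMP, but the windows end just outside their first and last DMP, which leaves little room for other CpGs. At the hypermethylated clusters from 152453555 and 140053373, not printed, 2 of 3 CpGs had a DMP. Clusters 1 and 2 by number of DMPs, at Runx3 and at Mmp23, and a cluster at Hes5 overlap untranslated regions and are described by their values alone.

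Sequence and gene content set the region apart before methylation is considered. It held 13.6 CpGs per kb, compared to 7.82 on the rest of chromosome 4 and 8.49 on the other autosomes, and 85.2 annotated transcript starts per Mb, compared to 37.9 and 32.4. RRBS covered 6.19 % of its CpGs, compared to 3.29 % and 3.61 %, and 901 positions per Mb, compared to 273.5 and 324. The covered positions themselves were not richer in CpGs, with a median of 11 CpGs within 100 bp, compared to 15 and 14. Promoters, taken as 500 bp upstream to 100 bp downstream of a GENCODE transcript start, held 28.3 % of the members, exons 20.1 %, introns 33.0 % and intergenic sequence 18.6 %. On the other autosomes these shares were 29.6, 21.4, 27.5 and 21.5 %.

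Mean methylation over the members was 45.5 % in wt compared to 42.8 % in βerko MEFs, a difference of -2.69 percentage points. With only the first position taken of each run of covered positions within 500 bp, the difference was 0.111 points. The lower mean of βerko MEFs was thus not seen at these 3576 positions, and the first position need not represent its run. The mean was not computed in this way outside the region. Over all covered positions, the difference was -1.79 points on the rest of chromosome 4 and -1.88 points on the other autosomes. What differed more was the spread of the single differences, with an SD over positions of 23.2 points, compared to 18.8 and 18.7. Differences of at least 50 points in either direction were found at 7.40 % of the members, 4.42 % of the rest of chromosome 4 and 4.24 % of the other autosomes, with 4.38 % over all covered positions. Of the members, 4.88 % were lower by at least 50 points and 2.52 % were higher.

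Losses made up 1.58 % of the members (95 % Wilson confidence interval 1.42 to 1.74 %), compared to 0.759 % on the rest of chromosome 4, 0.688 % on the other autosomes and 0.728 % over all covered positions. Gains made up 0.732 % (0.630 to 0.850 %), compared to 0.354 %, 0.222 % and 0.249 %. In relation to the other autosomes the shares were 2.29 times as high for losses and 3.30 times as high for gains. These intervals cover counting error over positions only, and neighbouring positions are not independent. When only positions that could show the change were counted, losses were found at 4.20 % of the 8670 members above 80 % in wt, compared to 2.51 % and 2.12 %. Gains were found at 1.61 % of the 10529 members below 20 % in wt, compared to 0.661 % and 0.441 %. The higher shares were thus also seen with the wt level held within the same range. Intermediate outcomes were more frequent as well, since 20.9 % of the members above 80 % in wt fell between 20 and 80 % in βerko MEFs, compared to 17.8 % and 17.0 %.

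**Figure D1:**
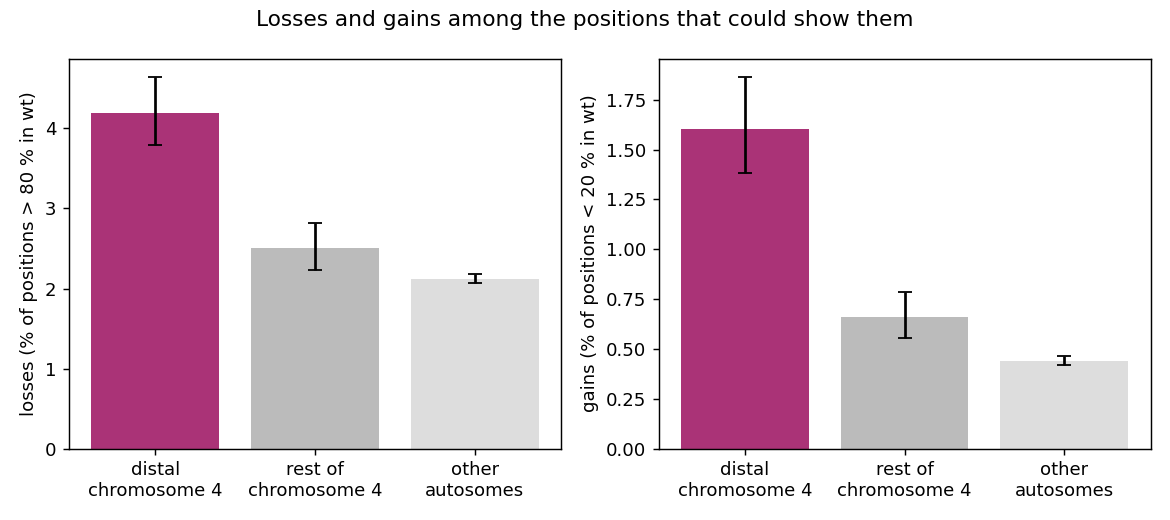
Losses as a percentage of positions above 80 % in wt (left) and gains as a percentage of positions below 20 % in wt (right) in the 3 sets of positions, with 95 % Wilson confidence intervals as error bars. Distal chromosome 4 had the highest bar in both panels, at 4.20 % for losses and 1.61 % for gains.

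DMPs, with more than 4 reads in both libraries, gave shares of 1.44 % for hypomethylated and 0.710 % for hypermethylated positions, compared to 0.7 % and 0.237 % over all covered positions. The number of reads behind them was not alike in the 2 libraries. At the hypomethylated DMPs of the region, median depth was 15 wt reads against 58 βerko reads, compared to 22 and 47 reads on the other autosomes. Hypermethylated DMPs had 21.5 and 38 reads, compared to 37 and 32. βerko MEFs had the more reads at 94.9 % of the hypomethylated and 87.8 % of the hypermethylated DMPs, compared to 83.4 % and 34.1 % on the other autosomes. The median log2 ratio of βerko to wt reads was 1.62 at hypomethylated DMPs, whereas it ranged from 0.126 to 1.27 over the other 18 autosomes. At hypermethylated DMPs it was 0.807, compared to -0.794 to 0.0534. The rest of chromosome 4 had median log2 ratios of 1.24 and 0.556, the first within and the second above the range of the other autosomes. Its 10-Mb blocks differed, and in the block from 50000000 the 3 hypomethylated DMPs had more reads in wt, with a median of 78 compared to 56 reads and a log2 ratio of -0.285.

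The excess of hypomethylated DMPs depended on the reads required. With at least 10 reads in both libraries, 233 hypomethylated DMPs remained and their share was 1.88 times that of the other autosomes. With at least 20 reads it was 1.38 times, from 111 DMPs, and with at least 30 reads 0.916 times, from 48 DMPs. For hypermethylated DMPs the ratio was 3.36 with more than 4 reads, 3.22 with at least 10, 2.87 with at least 20 and 2.09 with at least 30 reads, from 48 DMPs. All these shares were taken over all covered positions, because depth was known only at DMPs. A lower wt depth would therefore by itself lower the number of DMPs that pass a minimum of reads. Few wt reads also leave single percentages uncertain, which by itself can carry positions past the methylation thresholds and add losses and gains. These effects were not separated. The part of read depth in the frequency of losses and gains was not tested.

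**Figure D2:**
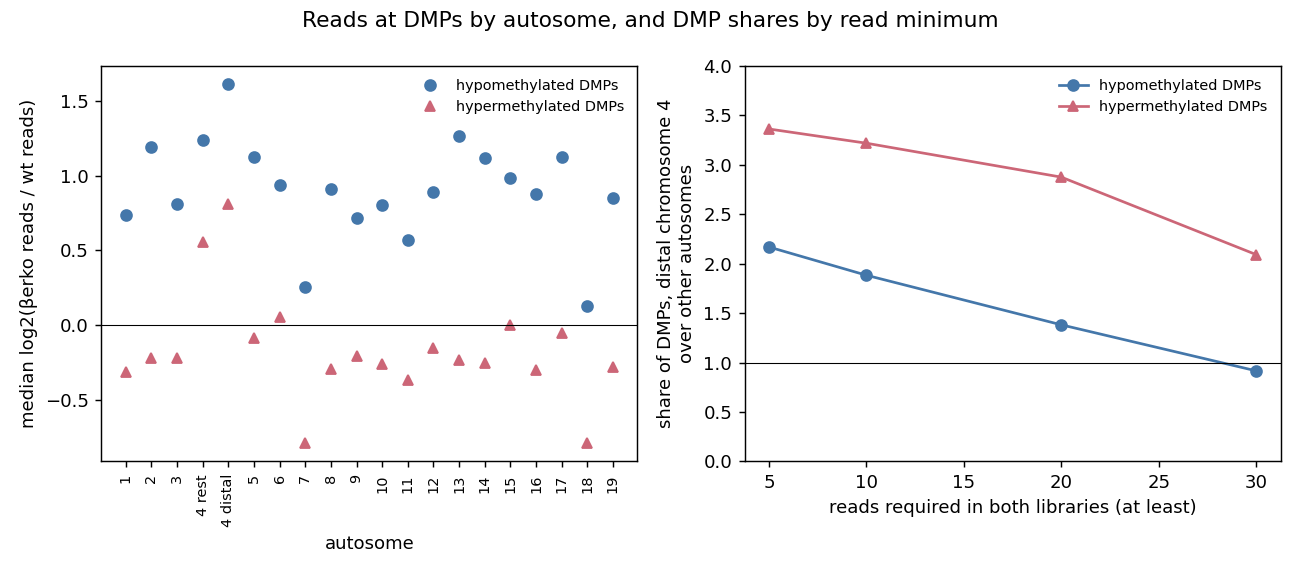
The left panel shows the median log2 ratio of βerko to wt reads at DMPs for each autosome, with chromosome 4 split at the start of the distal region. Both points of distal chromosome 4 lay above those of the other 18 autosomes. The right panel shows the share of DMPs on distal chromosome 4 over that on the other autosomes against the reads required in both libraries, with a fall from 2.17 to 0.916 for hypomethylated and from 3.36 to 2.09 for hypermethylated DMPs.

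Losses and gains were spread over most of the region. In 1-Mb bins, the loss share exceeded the median of the bins on the other autosomes (0.261 %) in 25 of 26 bins and their upper quartile in 20. Gain shares exceeded the upper quartile in 21 bins. Both lay above the upper quartile in 18 of 26 bins (69.2 %), compared to 121 of 1930 bins on the other autosomes (6.27 %). The 4 adjacent bins from 143000000, 144000000, 145000000 and 146000000 had no gain, and the first of them had no loss, with 86 to 203 positions each. Bins with few positions more often hold no change, and the distal region held more positions per Mb. The largest loss shares were found in the bin from 154000000, with 43 losses among 1245 positions (3.45 %), from 134000000, with 42 of 1393 (3.02 %), and from 155000000, with 29 of 1173 (2.47 %). The first of these includes the upstream end of Prdm16 and Hes5, the second Runx3 and the last Mmp23. The largest gain shares were found in the bins from 152000000, with 13 gains among 537 positions (2.42 %), 153000000, with 19 of 1004 (1.89 %), and 139000000, with 14 of 934 (1.5 %). The 3 bins with the largest loss shares were not those with the largest gain shares, and gains outnumbered losses in 4 bins.

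The start at 130000000 was no natural border. The bin just outside it, from 129000000, had 28 losses and 8 gains among 1202 positions (2.33 % and 0.666 %), and the bin just inside had 8 and 6 among 456 (1.75 % and 1.32 %). Over 10 Mb, the block from 120000000 had 0.862 % losses and 0.403 % gains, and the last block, from 150000000, had 2.12 % and 0.898 %. High loss shares also occurred elsewhere on the chromosome, with 1.55 % in the block from 100000000. When the last 25.63 Mb of each of the other 18 autosomes were taken, their loss shares ranged from 0.333 to 1.58 %, the highest being on chromosome 14, at a level that distal chromosome 4 did not exceed. Their gain shares ranged from 0.0771 to 0.415 %, all below the 0.732 % of distal chromosome 4.

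**Figure D3:**
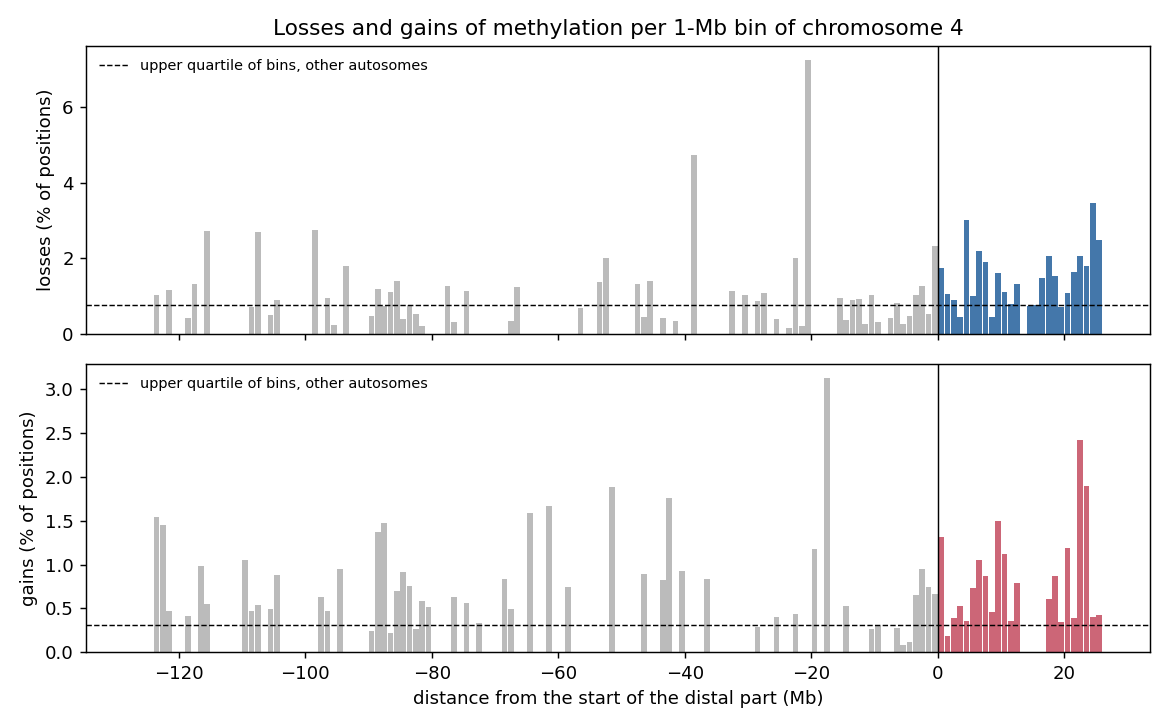
Losses (upper panel) and gains (lower panel) as a percentage of covered positions in 1-Mb bins of chromosome 4 with at least 50 positions, plotted against the distance from the start of the distal region in Mb. Coloured bars are the distal region, grey bars the rest of the chromosome, and the dashed line is the upper quartile of bins on the other autosomes. The distal bars exceeded the line in 20 of 26 bins for losses and 21 for gains, and single higher bars stood in the rest of the chromosome.

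Losses were more frequent than on the other autosomes at promoters, in introns and in intergenic sequence. Promoters held 122 of the 364 losses, a share of 1.87 % of promoter positions, compared to 0.407 % on the other autosomes. Of promoter positions above 80 % in wt, 14.9 % were losses, compared to 9.67 % on the rest of chromosome 4 and 6.87 % on the other autosomes. Without the 3 largest clusters, which lie at Runx3 and Mmp23, 82 promoter losses remained, or 1.27 % of promoter positions and 10.6 % of those above 80 % in wt. The latter was close to the 9.67 % of the rest of chromosome 4, where no clusters were left out. In introns the loss share was 1.55 %, compared to 0.660 %, and in intergenic sequence 1.91 %, compared to 0.849 %. Of intergenic positions above 80 % in wt, 3.84 % were losses, compared to 1.63 %. In exons the loss share was 0.904 %, compared to 0.948 %, and there the region had no higher share than the other autosomes. On the rest of chromosome 4 the loss shares were 0.601 % at promoters, 0.880 % in exons, 0.971 % in introns and 0.634 % in intergenic sequence. Gains were rare at promoters, with 4 positions (0.0612 %, compared to 0.0495 %), and most frequent in intergenic sequence, with 62 positions (1.44 %, compared to 0.440 %). In exons, 30 gains made up 0.645 % of the positions, compared to 0.140 % on the other autosomes, which was the largest ratio of any feature, and in introns 73 gains made up 0.958 %, compared to 0.299 %. On the rest of chromosome 4 the gain shares were 0.0487 % at promoters, 0.202 % in exons, 0.406 % in introns and 0.981 % in intergenic sequence. Of intergenic positions below 20 % in wt, 5.97 % of the members were gains, compared to 4.91 % on the rest of chromosome 4 and 2.21 % on the other autosomes. Losses had a median of 12 CpGs within 100 bp and gains a median of 5, which on the other autosomes were 13 and 5.

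Losses also lay closer together than gains. Of the hypomethylated DMPs, 132 (39.6 %) fell into 26 clusters, close to the 39.1 % of the other autosomes and above the 23.2 % of the rest of chromosome 4. Of the hypermethylated DMPs, 15 (9.15 %) fell into 5 clusters, compared to 4.60 % on the other autosomes and 4.20 % on the rest of chromosome 4. The other covered positions within 100 bp of a hypomethylated DMP were lower in βerko MEFs by a median of 46.4 points when averaged per DMP, that is, the median difference was -46.4, compared to -48.7 on the other autosomes. For hypermethylated DMPs the median difference of their neighbours was 7.37 points, compared to 16.7 points, and the mean over the neighbours differed by less than 20 points at 56.1 % of them, compared to 49.9 %. At CpGs covered on both strands, the other strand moved in the same direction at 52 of 52 CpGs with a loss and 25 of 25 with a gain, and met the thresholds itself at 19 and 11 of them. Gains were often single CpGs, but both strands of these moved together where both were covered.

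The largest cluster of losses lay in Runx3, which encodes a runt domain transcription factor of neuronal and lymphoid development. Runx3 had 28 hypomethylated DMPs and no hypermethylated DMP, all between 134708225 and 134709339, inside the gene model (134676567 to 134733905) and at annotated promoters of internal transcript starts. The first cluster spanned 258 bp, with 18 DMPs at 87.5 to 100 % in wt compared to 0 to 8.64 % in βerko MEFs. Its wt values rested on few reads, a median of 9 compared to 82 in βerko MEFs. Hypomethylated DMPs are by definition above 80 % in wt. All 39 covered positions of this stretch averaged 78.6 % in wt and 2.53 % in βerko MEFs. The second cluster, whose core is printed above, had 10 DMPs over 408 bp with means of 94.4 % against 4.96 %. It contains the best covered Runx3 DMPs. The DMP at 134709146 was methylated in 43 of 43 reads in wt (exact 95 % interval 91.8 to 100 %) and in 7 of 116 reads in βerko MEFs (6.03 %, 2.46 to 12 %). At 134709158, with the same depth, 41 of 43 wt reads (95.35 %) and 4 of 116 βerko reads (3.45 %) were methylated. Over all 193 covered positions of the gene, the mean was 73.8 % in wt compared to 44.7 % in βerko MEFs.

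The locus of Mmp23, Slc35e2 and Mib2 held the next cluster. Mmp23 encodes a membrane-anchored matrix metalloproteinase, Slc35e2 a putative solute carrier and Mib2 a ubiquitin ligase of the Notch pathway. The authors' annotation assigned 22 hypomethylated DMPs to Slc35e2, 10 of them shared with Mmp23 and 5 with Mib2, from 155027303 to 155028695. The densest stretch, 94 bp at the annotated start of Mmp23, had 12 DMPs at 83.3 to 100 % in wt compared to 0 to 6.94 % in βerko MEFs. The reads in wt were again few, with a median of 6 and a range of 5 to 20. A DMP with 5 of 5 methylated reads has an exact lower bound of 47.8 % methylation. At 155027473, 19 of 20 wt reads (95 %, exact interval 75.1 to 99.9 %) and 5 of 72 βerko reads (6.94 %, 2.29 to 15.5 %) were methylated. The Mib2 end, printed above, had 26 to 37 reads in wt and a mean of 91.3 % compared to 5.74 %, so that the loss there was seen with more wt reads as well. Over the gene model of Mmp23, the mean of 29 positions was 92.5 % in wt compared to 16.6 % in βerko MEFs, and this was the largest difference among the 434 gene models of the region with at least 5 covered positions. The gene models of the other genes of the locus held no loss. Slc35e2 averaged 3.35 % in wt compared to 3.02 % at 33 positions, and Mib2 averaged 83.1 % compared to 76.7 %.

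Prdm16, a zinc finger transcription factor known for brown fat and haematopoietic stem cells, held changes in both directions. It had 20 hypomethylated and 5 hypermethylated DMPs. Of the losses, 15 were also assigned to 5930403L14Rik and lay within 154009505 to 154010473, near the upstream end of Prdm16. The cluster printed above, with 10 DMPs, had means of 89.8 % against 7.40 %, with median depths of 8.5 wt and 53 βerko reads. All 17 covered positions of this stretch averaged 79.1 % in wt and 7.30 % in βerko MEFs. The gains were dispersed through the gene. At 153895315, 3 of 20 wt reads (15 %, exact interval 3.21 to 37.9 %) and 39 of 39 βerko reads (100 %, 91.0 to 100 %) were methylated. Over 408 positions the mean of Prdm16 was 70.5 % in wt and 55.3 % in βerko MEFs.

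Camta1, which encodes a calmodulin-binding transcription activator, had the most gains, with 11 hypermethylated and 7 hypomethylated DMPs from 150481354 to 151148517. No 3 of them formed a cluster. At 151113831, 7 of 39 wt reads (17.9 %, exact interval 7.54 to 33.5 %) and 76 of 81 βerko reads (93.8 %, 86.2 to 98.0 %) were methylated. At 150514885 the direction was opposite, with 33 of 41 reads (80.5 %, 65.1 to 91.2 %) compared to 7 of 86 (8.14 %, 3.34 to 16.1 %). The mean over 599 positions was 48.8 % in wt and 50.8 % in βerko MEFs. Of these positions, 25 were lower and 36 higher by at least 50 points, and 69.8 % lay within 20 points, compared to 78.6 % of the members. The mean thus differed little although strong changes were found in both directions. When Prdm16 and Camta1 were left out, losses still made up 1.51 % and gains 0.690 % of the positions.

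Further genes with many losses were LOC547380, whose DMPs from 148184258 to 148327089 lie inside the model of the zinc finger gene Casz1, with 11 hypomethylated and 5 hypermethylated DMPs, and Espn, which encodes the actin-bundling protein espin, with 11 and none. Ephb2, a receptor tyrosine kinase for ephrins, had 10 and 1. Its cluster, in an intron, had 8 DMPs with means of 95.6 % in wt against 9.85 % in βerko MEFs. Rap1gap, a GTPase-activating protein for Rap1, had 8 and 2, and its best covered DMP, at 137240915, was methylated in 54 of 60 wt reads (90 %, exact interval 79.5 to 96.2 %) and 7 of 81 βerko reads (8.64 %, 3.55 to 17.0 %). The genes with the most gains after Camta1 were LOC547380 and Prdm16 with 5 each, Ajap1 with 4, and Igsf21, Megf6 and Ube2j2 with 3 each. In all, 131 genes had a DMP, 85 of them a hypomethylated and 70 a hypermethylated one. Both kinds were found in 24 genes (18.3 %), compared to 215 of 2395 genes (8.98 %) on the other autosomes. The region had the higher density of DMPs, which by itself brings more genes into both groups. Of the 164 hypermethylated DMPs, 34 lay within 10 kb of a hypomethylated one, at a smallest distance of 37 bp.

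All 5 clusters of gains had 3 DMPs. The one with the largest mean difference, from 153193123 to 153193166, overlapped no gene, and the nearest annotated one, LOC100045740, was 89609 bp away. Its 3 DMPs were at 0 % in wt, with 10 to 27 reads, and at 94.7 to 95.7 % in βerko MEFs. A second cluster without a gene, from 152453555, had means of 8.33 % and 91.6 %, with only 6 to 8 wt reads. In Ajap1, which encodes a protein associated with adherens junctions, the 3 DMPs from 152836200 had means of 13.9 % against 95.3 %. All 5 covered positions of this stretch averaged 23.65 % in wt and 93.0 % in βerko MEFs. The cluster in an exon of Megf6, a gene of a protein with EGF-like domains, had means of 9.57 % and 87.0 %. A further cluster, from 140053373, lay between genes and had means of 14.2 % and 91.4 %. Ajap1 also had 4 hypomethylated DMPs. The 245 covered positions of its gene model included 10 losses and 5 gains, with 40 positions lower and 7 higher by at least 50 points. Their mean was 71.2 % in wt compared to 54.7 % in βerko MEFs.

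**Figure D4:**
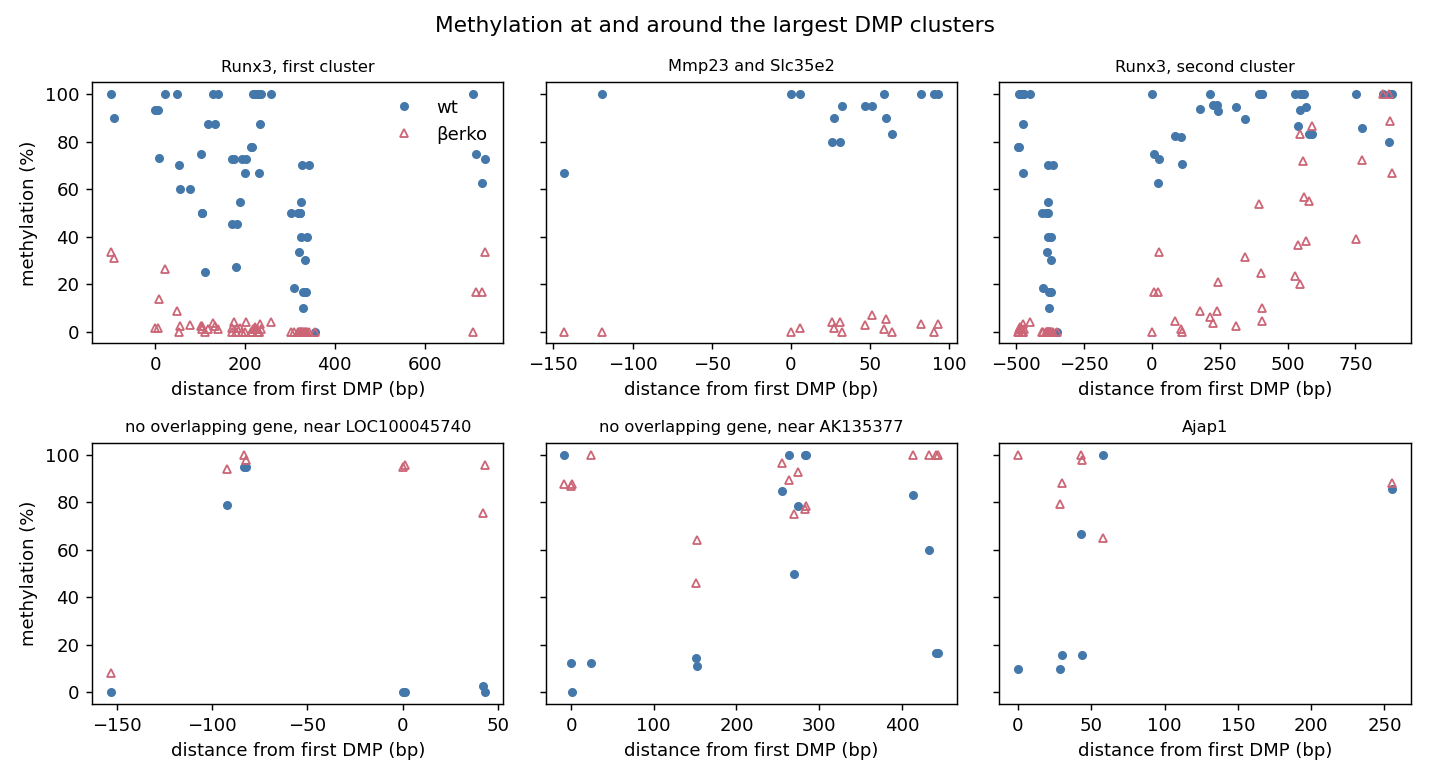
Percent methylation of every covered position in and around the 3 hypomethylated (upper row) and 3 hypermethylated (lower row) clusters with the most DMPs, ties being ordered by the mean difference, against the distance in bp from the first DMP. Filled circles are wt and open triangles βerko MEFs. At the first Runx3 cluster and at Mmp23, βerko values were mostly low at neighbouring positions as well. Downstream of the second Runx3 cluster βerko values rose, with 83.3 % at 134709477 and 100 % at 134709784. Around the hypermethylated clusters neighbouring positions were often high in both libraries.

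Genes were also followed as lists, by the mean over all covered positions of the gene model and 1 kb upstream of it, for genes with at least 5 such positions. Over all 434 gene models of the region, the mean was lower in βerko MEFs by at least 10 points in 52 and higher in 22, with a median difference of -0.773 points. Positions of a gene share fragments and reads, and with 1 library per cell type no gene was tested.

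Of 22 developmental transcription regulators, 6 were lower by at least 10 points and none was higher, with a median of -2.29 points. The lower ones were Runx3, the Hes genes Hes2, Hes3 and Hes5, Prdm16 and Pax7. Hes genes encode basic helix-loop-helix repressors, several of them targets of Notch signalling. At Hes2, the wt mean of 47.9 % compared to 24.4 % in βerko MEFs (22 positions). Hes3 had 35.7 % and 14.6 % at 51 positions, and Hes5 had 35.3 % and 14.3 % at 77 positions. The 5 hypomethylated DMPs of Hes5 were clustered at its promoter, with 6 to 12 wt reads. Pax7, a regulator of muscle stem cells, had 33.4 % and 22 % at 169 positions, with 4 losses and 2 gains. Id3, an inhibitor of basic helix-loop-helix factors, was unmethylated in both libraries, at 0.0596 % and 0.0339 %.

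Of 20 signalling and guidance genes, 3 were lower and 1 was higher by at least 10 points, with a median of -2.37 points. Gabrd, which encodes the δ subunit of the GABA type A receptor, had the largest positive difference of the lists, with 56.2 % compared to 80.9 %, but at only 9 positions. The lower ones were Ajap1, Rap1gap, from 62.8 % to 49.0 %, and the serotonin receptor gene Htr6, from 32.5 % to 22.3 %. Although Ephb2 was among the genes with the most DMPs, its mean over 278 positions was 50.7 % in wt against 46.5 % in βerko MEFs.

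Of the 7 TNF receptor family genes listed, 4 had enough positions, and 3 of these were lower by at least 10 points. Tnfrsf25 had 85.3 % in wt compared to 71.6 % in βerko MEFs at 26 positions. Tnfrsf1b had 65.9 % and 54.5 % at 10 positions, and Tnfrsf8 63.6 % and 52.4 % at 8. These rested on few positions, with 1 loss among the 3 genes. Tnfrsf9 had 23.6 % and 25.7 %.

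Among 11 matrix, bone and mesenchymal genes, Mmp23 alone differed by at least 10 points. The podoplanin gene Pdpn had 16.8 % in wt and 22.3 % in βerko MEFs, Plod1, a lysyl hydroxylase of collagen, 48.2 % and 44.2 %, and Matn1, which encodes matrilin 1, 81.7 % and 78.5 %. None of 14 chromatin and cell cycle genes differed by 10 points. The largest differences there were -7.10 points at Chd5, a chromatin remodeller, -4.28 at the kinase gene Rps6ka1, -3.32 at Hmgn2, a nucleosome-binding protein, and 3.22 at the histone demethylase gene Kdm1a.

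**Figure D5:**
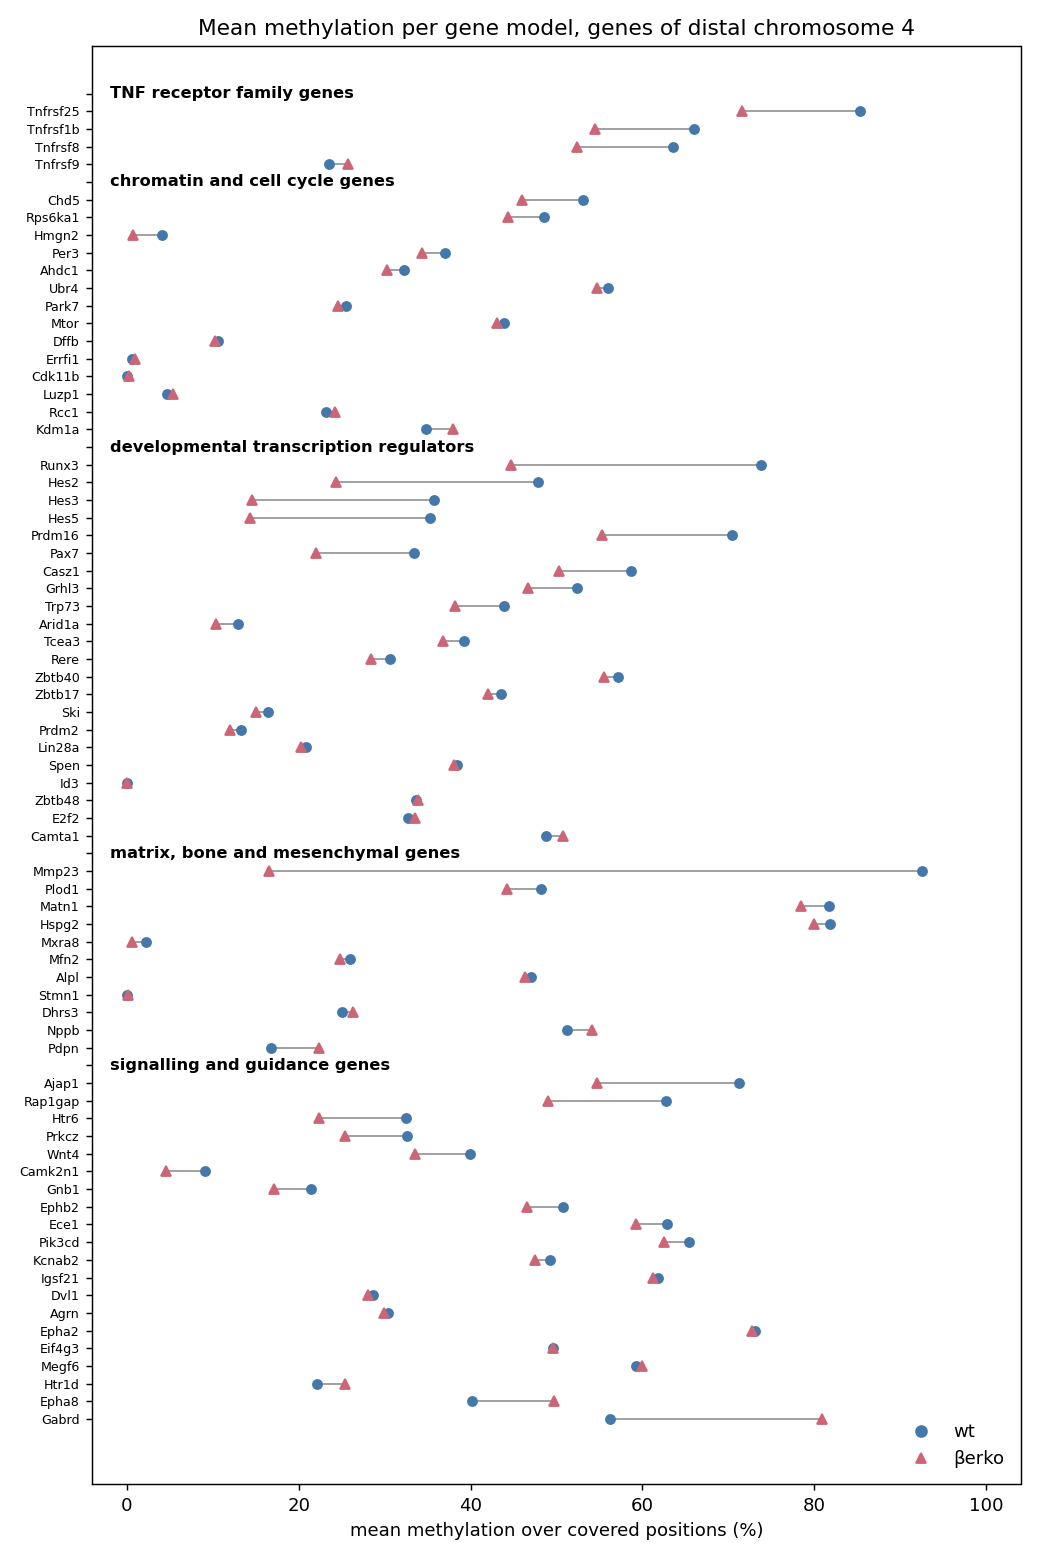
Mean methylation of each listed gene over its covered positions in wt (circles) and βerko MEFs (triangles), joined by a grey line and ordered by the difference within each list. Mmp23 has the longest line, from 92.5 to 16.6 %, followed by Runx3, and most genes of the chromatin and cell cycle list have nearly coincident symbols.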

How the data were processed

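RRBS was performed by the authors on 1 library of wt and 1 of βerko MEFs, each of DNA pooled from 3 batches. Reads were mapped with the Genomatix Mining Station, whose version is not given in the sources used here, and the submitters' processing notes name CASAVA 1.4 and build mm9. The authors deposited percent methylation for each cytosine that both libraries covered, with no read numbers, and separate tables of changed positions with deposited read counts per library and gene names from RegionMiner. Depth was therefore known only at changed positions. Reads were amplified by PCR and carry no molecular identifiers, and intervals therefore cover counting error only.

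All 810073 autosomal positions were CpG cytosines of NCBIM37. Features came from GENCODE on that build, with promoters placed before exons, introns and intergenic sequence. Shares have Wilson intervals and single DMPs exact binomial intervals. No test across positions was made, because each cell type had 1 library. Named were the 3 largest clusters per direction, the 10 and 5 genes (with ties) with the most hypomethylated and hypermethylated DMPs, the 3 bins with the largest loss and gain shares, and the 4 list members with the largest mean difference. Further clusters and genes (the Prdm16, Ephb2, Mib2, Hes5 and hypermethylated clusters beyond the third, Pax7, Id3 and single DMPs) were chosen after their values were seen. The members and lists were chosen with earlier results of these data known. Calling and clustering were tested on simulated data. Alternatives were tried for thresholds, reads, strands, the region's start, runs of positions and clusters. Python 3.11.15, NumPy 2.4.6, pandas 2.3.3, SciPy 1.17.1 and matplotlib 3.10.9 were used.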

Additional observations from a re-analysis of the deposited data

How the results depend on the processing

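No paired analysis was possible because each cell type had 1 library, and for the same reason no replicate could be left out. The share of losses, 1.58 %, was 0.623 % with thresholds of 10 and 90 %, 2.91 % with 30 and 70 %, 4.88 % for differences of at least 50 points, 1.41 % with the region starting at 120 Mb and 1.26 % with 1 position per run within 500 bp. The share of gains, 0.732 %, was 0.247, 1.68 and 2.52 % with the first 3 of these and 1.54 % with 1 position per run, where gains thus outnumbered losses. In relation to the other autosomes, losses were 1.72 to 2.99 times and gains 1.79 to 4.96 times as frequent over 8 alternatives, none of which set a minimum of reads. With at least 20 reads in both libraries the ratio was 1.38 for hypomethylated and 2.87 for hypermethylated DMPs. With at least 30 reads it was 0.916 and 2.09, so that the excess of hypomethylated DMPs was not seen there. The mean difference was -3.07 points with a start at 140 Mb and 0.111 points with 1 position per run. The lower mean of βerko MEFs was thus not seen with only the first position of each run, which need not represent the run. Hypomethylated DMPs numbered 111 with at least 20 reads, 48 with at least 30 reads (an alternative chosen after seeing the data), 161 with 1 per run and 126 with thresholds of 10 and 90 %. Hypermethylated DMPs numbered 87 with at least 20 reads, 48 with at least 30 and 53 with thresholds of 10 and 90 %. Clusters of at least 2 DMPs numbered 62 hypomethylated and 14 hypermethylated, and clusters of at least 5 DMPs 8 and 0. Merging the strands, leaving out Prdm16 and Camta1, requiring 10 reads or allowing gaps of 500 bp moved none of the values it was applied to beyond its interval, or a count by over 1.5 times. Beyond these constructions the cause of the shifts was not tested. Positions with few reads limit single values, and no depth was known for unchanged positions.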

Other observations

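Losses and gains differed in CpG density, most clearly in the densest and the sparsest sequence. Among members with 15 or more CpGs within 100 bp, 158 of 9677 positions were losses (1.63 %, compared to 0.635 % on the other autosomes) and 2 were gains. Of the positions in this class above 80 % in wt, 23.5 % were losses, compared to 11.7 % on the other autosomes. Among members with 1 to 4 CpGs within 100 bp, 29 of 3634 were losses and 82 were gains (2.26 %, compared to 0.702 %). Of the positions in that class below 20 % in wt, 17.2 % were gains, compared to 14.2 % on the rest of chromosome 4 and 9.24 % on the other autosomes. With 5 to 9 CpGs within 100 bp both directions were frequent, with 107 losses and 71 gains among 6954 members, and with 10 to 14 CpGs there were 70 losses and 14 gains. Along chromosome 4, the median log2 ratio of βerko to wt reads at hypomethylated DMPs ranged over 10-Mb blocks from -0.285 in the block at 50000000, with 3 DMPs, to 2.30 in the block at 10000000, with 9 DMPs. In the distal blocks it was 1.69 from 130000000, 1.4 from 140000000 and 1.69 from 150000000. At Esr2, the targeted gene, 25 positions averaged 46.0 % in wt compared to 39.5 % in βerko MEFs, and methylation is no check of the knockout itself.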
